A study of Mus musculus with 6 samples.

Results

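The genes described here are 10 markers of blood vessels in the embryonic forebrain, of 34745 genes in the deposited table. They were taken by gene symbol: Cldn5, Pecam1, Cdh5, Esam, Kdr, Flt1, Tek and Slc2a1 for endothelial cells, and Pdgfrb and Rgs5 for the pericytes that wrap them. All 10 were found once each, passed the filter on low counts and were among the 14929 genes tested. RNA-seq had been run on tissue of the MGE, or medial ganglionic eminence, a ventral domain of the forebrain where many cortical interneurons are born. At embryonic day 12.5 it was dissected from 3 wild type littermate samples and 3 samples homozygous for an Sp9 null allele (Sp9-/-). Both genotypes shared a mixed C57BL/6J, 129S6 and CD1 descent. No Cre driver or conditional allele is named in the labels. They do not say whether a sample is 1 embryo or a pool, and p-values therefore speak only of the spread among these 6 libraries, part of which may be technical.

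Brain vessels grow into the neural tube from a plexus at its surface, drawn by VEGF from neural progenitors and by Wnt7 ligands. Endothelial cells line the vessel and are joined by VE-cadherin and claudin 5. Pericytes are recruited by PDGF-B, released from the endothelium, acting on the receptor Pdgfrb. The comparison asks whether the share of vascular transcripts in the dissected MGE differed between genotypes. In bulk tissue, fewer cells of a type and less RNA per cell cannot be told apart.

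Library totals ran from 6826447 to 10979280 counts, and a floor of 3 counts per library lay between 0.273 and 0.439 CPM (counts scaled to a library total of 1000000). Sp9 lay between 189 and 247 CPM in wild type libraries, and between 10.6 and 13.0 CPM in the nulls. Replicate 2 of both genotypes stood apart, with Tbr1, a gene of cortical neurons, at 0.641 and 0.0911 CPM. In replicates 1 and 3 it was at 14.8 and 20.2 CPM in wild type and 23.3 and 41.9 CPM in null libraries. Of 3 tested genes of the neighbouring pallium and hypothalamus 0 were called without the replicate number as a block, against 0.147% of all tested genes. With the block Tbr1 alone was called, higher by 0.81 on the log2 scale (edgeR adjusted p = 0.0238), where 4.00% of all tested genes were called. Mitochondrial transcripts took 2.23% ± 0.0411 of wild type and 3.05% ± 0.635 of null counts. A sum of 11 stomach and pancreas genes was at 103, 101 and 131 CPM in wild type libraries and at 0 in each null library. RNA of other organs, which also hold vessels and macrophages, thus followed genotype. Its part in the vascular and microglial values below cannot be told apart from genotype. The 10 genes had 52 to 938 counts per library, so none was at or near the floor.

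None of the 10 vascular genes was called different between genotypes, and the ranges of the genotypes overlapped for each. Log2 fold changes here are fitted values after TMM scaling and can differ slightly, in sign too when near 0, from the ratio of the printed CPM means. For Cldn5, Tek and Pdgfrb the mean CPM differed by more than 1 pooled SD within genotypes, and all 3 were lower in the nulls. With edgeR's quasi-likelihood test, 0 of 10 were called at an adjusted p under 0.05, where 0.147% of all tested genes were called. With the replicate number as a block it was again 0 of 10, against 4.00% of all tested genes. No member had an unadjusted p under 0.05 in either fit, against 5.91% and 17.2% of all tested genes. DESeq2 without and with the block also called 0, against 0.563% and 1.09% of all tested genes. Wild type and null values overlapped for all 10, whereas they did not overlap for 13.0% of tested genes. The median log2 fold change of the 10 was 0.035, with 7 above and 3 below 0, and that of all tested genes was -0.005. For 7 of the 10 the change was smaller in size than the median change of all tested genes, 0.12. The 95% intervals of the 10 lay between 0.611-fold and 1.73-fold, so they excluded a 2-fold change in either direction for each gene. A p above the threshold does not show that the levels were equal, and smaller changes within these intervals remain possible.

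**Figure D1:**
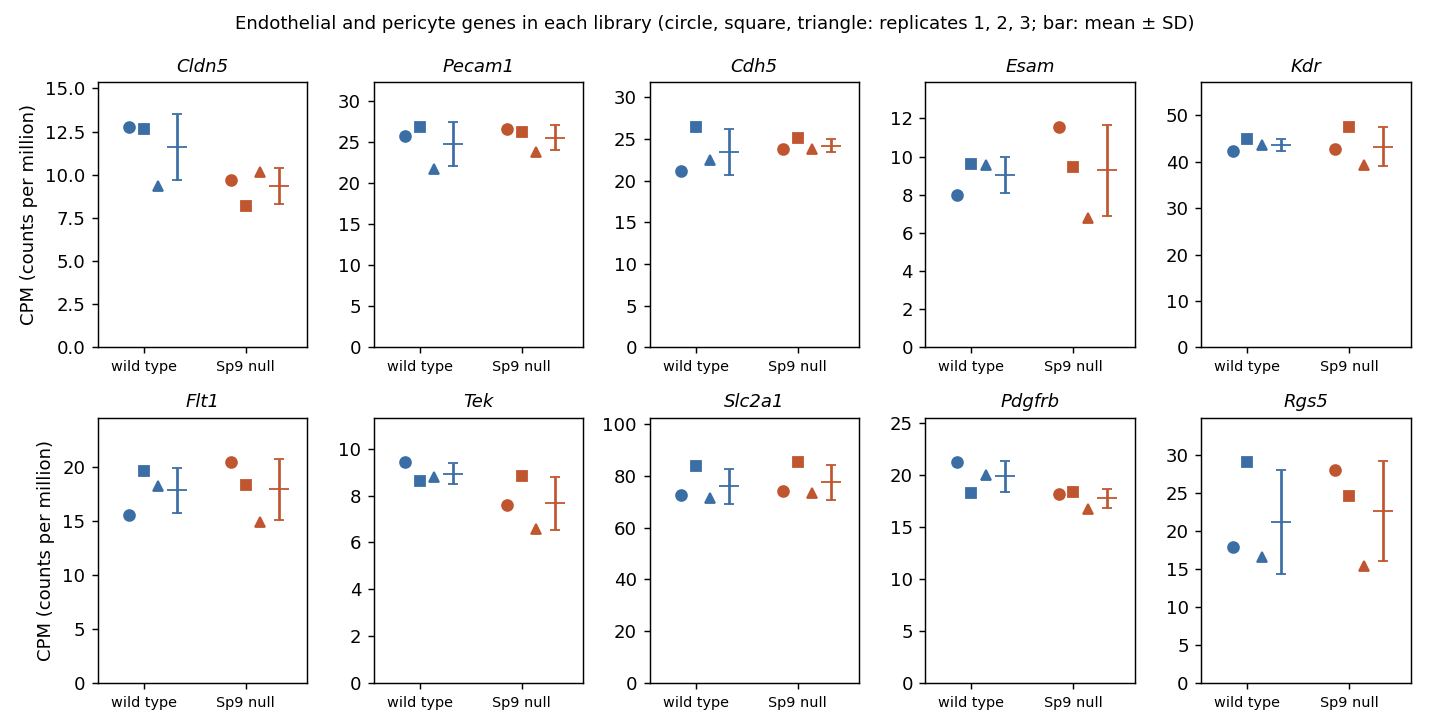
CPM of each of the 10 genes (vertical axes, from 0) in the 3 wild type and 3 Sp9 null libraries, 1 point per library, with mean ± SD beside them. The genotypes overlap in every panel, Slc2a1 is the highest by CPM, and Rgs5 has the widest spread relative to its mean.

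Levels can be compared between genes only per length. Deposited FPKM values, which take gene length and library total into account, allow this. In wild type, Slc2a1 had the highest level at 14.5 ± 1.30 FPKM (SD, n = 3), followed by Cldn5 at 8.21 ± 1.37 and Cdh5 at 5.87 ± 0.692. Cldn5 and Cdh5 met at the edges of their ranges, with the lowest Cldn5 library at 6.63 and the highest Cdh5 library at 6.64 FPKM. Rgs5, at 4.56 ± 1.49 with libraries from 3.56 to 6.27, overlapped Cdh5. Rgs5 and Kdr, at 4.52 ± 0.131, did not differ beyond their spread. Pecam1, Esam and Pdgfrb formed a lower group at 2.76 ± 0.302, 2.72 ± 0.283 and 2.59 ± 0.194, again within each other's spread. Flt1, at 1.24 ± 0.143, and Tek, at 1.18 ± 0.0579, were lowest and overlapped. Slc2a1 lay at the 77.4th percentile of tested genes and Tek at the 18.5th.

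The endothelial junction genes were Cldn5, Pecam1, Cdh5 and Esam. Cldn5 (ENSMUSG00000041378, chromosome 16, 18776847 to 18778260, GRCm38) encodes the claudin that seals tight junctions of brain endothelium. It was at 12.8, 12.6 and 9.38 CPM in wild type libraries, against 9.67, 8.20 and 10.2 CPM in null replicates 1, 2 and 3. Wild type replicates 1 and 2 were above every null library, and replicate 3 lay within the null range. The means were 11.6 ± 1.93 and 9.35 ± 1.03 CPM. Its log2 change was -0.29 (SE 0.18, adjusted p = 0.897 by edgeR), with a 95% interval of 0.611- to 1.09-fold. This was the largest change among the 10 genes, and it did not pass with the block either (adjusted p = 0.397).

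Cdh5 (ENSMUSG00000031871, chromosome 8, 104101625 to 104144502) encodes VE-cadherin, the adherens junction cadherin of endothelium. Its values were 21.2, 26.5 and 22.5 CPM in wild type libraries, against 23.7, 25.0 and 23.8 CPM in the nulls. All null values fell inside the wild type range. The log2 fold change was 0.07 (SE 0.12, adjusted p = 0.978), with an interval of 0.863- to 1.28-fold.

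Pecam1 (ENSMUSG00000020717, chromosome 11, 106654217 to 106750628) encodes an adhesion molecule of endothelial junctions that leukocytes and platelets also carry. It was at 25.7, 26.8 and 21.7 CPM in wild type libraries, against 26.5, 26.2 and 23.8 CPM in the nulls. Again the null values lay within the wild type range, and the interval was 0.862- to 1.27-fold. Esam (ENSMUSG00000001946, chromosome 9, 37528078 to 37538319), an immunoglobulin-type adhesion molecule of tight junctions, had 7.97, 9.62 and 9.58 CPM in wild type. In null libraries it had 11.6, 9.47 and 6.79 CPM, so the null libraries held both the highest and the lowest value. Its log2 fold change was 0.05 (SE 0.22, adjusted p = 0.997), with an interval of 0.732- to 1.46-fold.

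The receptors Kdr and Flt1 bind VEGF, and Tek binds angiopoietins. Kdr (ENSMUSG00000062960, chromosome 5, 75932827 to 75978458), the main signalling receptor for VEGF-A, had 42.4, 44.9 and 43.6 CPM in wild type libraries, against 42.8, 47.5 and 39.2 CPM in the nulls. The means were 43.6 ± 1.27 and 43.2 ± 4.17 CPM. The fitted log2 fold change was 0.009 (SE 0.10, adjusted p = 0.997). Its interval of 0.854- to 1.19-fold was the narrowest of the 10 genes. Flt1 (ENSMUSG00000029648, chromosome 5, 147561604 to 147726011), which binds VEGF-A tightly and limits its access to Kdr, had 15.6, 19.7 and 18.3 CPM in wild type. In null libraries it had 20.5, 18.4 and 15.0 CPM, with the null values again the outermost on both sides. The interval was 0.792- to 1.31-fold. The ratio of Flt1 to Kdr, per length, was 0.274 ± 0.0242 in wild type and 0.278 ± 0.0369 in null libraries.

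Tek (ENSMUSG00000006386, chromosome 4, 94739289 to 94874976) encodes Tie2, which holds vessels stable when bound by Angpt1. It was at 9.44, 8.61 and 8.77 CPM in wild type libraries, against 7.62, 8.83 and 6.57 CPM in the nulls. Null replicates 1 and 3 were below all wild type libraries, and null replicate 2 was within their range. The log2 fold change was -0.19 (SE 0.18, adjusted p = 0.932), with an interval of 0.659- to 1.16-fold.

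Sp9 belongs to the Sp family of zinc finger factors, whose founding members bind GC boxes. None of the 3 receptor genes was called, and whether Sp9 acts on them through such boxes was not tested. Bulk tissue does not show whether the cells that made these transcripts also made Sp9, so a box count cannot bear on this. The promoters of these 3, chosen from the 6 genes with a promoter in the RefSeq table, are shown as examples that differ in such boxes. Each is the 250 bases before the RefSeq start site on GRCm38.p6, read 5′ to 3′ on the gene's own strand. Capitals mark the letters GGGCGG or, on the other strand, CCGCCC. They are Kdr at chr5:75978456-75978705 (minus strand), Flt1 at chr5:147726012-147726261 (minus strand) and Tek at chr4:94739039-94739288 (plus strand).
Kdr: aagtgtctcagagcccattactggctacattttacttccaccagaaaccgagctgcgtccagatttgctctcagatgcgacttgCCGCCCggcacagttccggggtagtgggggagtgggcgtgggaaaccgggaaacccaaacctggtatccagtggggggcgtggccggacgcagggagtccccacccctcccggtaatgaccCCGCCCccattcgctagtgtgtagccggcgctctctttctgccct
Flt1: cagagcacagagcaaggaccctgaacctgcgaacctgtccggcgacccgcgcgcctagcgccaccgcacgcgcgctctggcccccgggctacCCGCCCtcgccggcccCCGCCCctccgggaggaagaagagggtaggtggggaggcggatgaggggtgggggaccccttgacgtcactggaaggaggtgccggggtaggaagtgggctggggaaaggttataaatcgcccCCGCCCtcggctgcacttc
Tek: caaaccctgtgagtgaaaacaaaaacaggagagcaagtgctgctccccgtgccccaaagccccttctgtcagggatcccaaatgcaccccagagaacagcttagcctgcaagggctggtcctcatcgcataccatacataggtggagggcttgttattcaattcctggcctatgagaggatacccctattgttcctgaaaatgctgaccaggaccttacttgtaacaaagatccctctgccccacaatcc

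Kdr held 2 such boxes, beginning 166 and 45 bases before the start site. Flt1 held 3, at 158, 142 and 19 bases before it, and Tek held 0. Of the 6 genes with a promoter in the RefSeq table, 4 held at least 1 box, since Slc2a1 had 2, Cldn5 had 1 and Rgs5 had 0. Among all 32851 promoter sequences of the same length, 32.7% held at least 1. A match describes letters and not a bound site.

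Slc2a1 (ENSMUSG00000028645, chromosome 4, 119108711 to 119137983) encodes Glut1, the glucose transporter of the blood-brain barrier, which red cells and embryonic neuroepithelium also use. It had 72.5, 83.7 and 71.6 CPM in wild type libraries, against 74.1, 85.4 and 73.4 CPM in the nulls. Each null value was slightly above the wild type value with the same number, and replicate 2 was highest in both genotypes. The log2 fold change was 0.06 (SE 0.11, adjusted p = 0.984), with an interval of 0.877- to 1.23-fold. The interval was 0.939- to 1.15-fold with the block. Gm12868, with 925 counts over the 6 libraries, and Gm12867, with 17, overlap Slc2a1, which had 4451. The strand setting of the counting is not known, so reads from these overlapping genes cannot be told apart.

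Red cell and hypoxia genes are given beside Slc2a1. The erythroid genes in the table summed to 1028 ± 223 CPM in wild type libraries, against 1027 ± 250 CPM in the nulls. Of 10 tested 0 were called without the block. With it 2 were called, where 4.00% of all tested genes were. These were the embryonic globin genes Hba-x and Hbb-bh1, which rose by 0.41 and 0.33 on the log2 scale (adjusted p = 2.0e-05 and 0.0426, and 0.929 and 0.951 without the block). Hbb-bs, an adult globin gene, was at -0.37 with the block (adjusted p = 0.0846). Directions were mixed within both classes. With the block the embryonic Hbb-y was at -0.11, and the adult Hba-a1, Hba-a2 and Hbb-bt were at -0.006, 0.45 and -0.34. Of 11 tested genes of hypoxia and glucose use, 0 were called without and 2 with the block, again beside 4.00% of all tested genes. These 2 were Pdk1, a pyruvate dehydrogenase kinase gene, which rose by 1.59 on the log2 scale, and Hif1a, the hypoxia-inducible factor gene, which rose by 0.20 (blocked adjusted p = 0.0348). Their part in the Slc2a1 level was not tested.

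The pericyte genes were Pdgfrb and Rgs5. Pdgfrb (ENSMUSG00000024620, chromosome 18, 61045150 to 61085061) had 21.3, 18.3 and 20.1 CPM in wild type libraries, against 18.2, 18.4 and 16.8 CPM in the nulls. Wild type replicates 1 and 3 were above all null libraries, while wild type replicate 2 lay within the null range. The means were 19.9 ± 1.49 and 17.8 ± 0.889 CPM. The fitted log2 fold change was -0.14 (SE 0.12, adjusted p = 0.925). The interval was 0.750- to 1.10-fold.

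Rgs5 (ENSMUSG00000026678, chromosome 1, 169655501 to 169695813), a regulator of G protein signalling that marks pericytes, varied most. It was at 17.9, 29.1 and 16.5 CPM in wild type libraries, against 28.1, 24.6 and 15.4 CPM in the nulls. Wild type replicate 2 and null replicates 1 and 2 were high, and the other 3 libraries were low, so the genotypes overlapped. Its coefficient of variation within genotypes was 30.7%, against 7.11% from counting alone, while those of the other 9 genes were 6.51% to 19.9%. The log2 fold change was 0.11 (SE 0.29, adjusted p = 0.992), with an interval of 0.675- to 1.73-fold. With the block it was 0.10, with an interval of 0.881- to 1.31-fold. Leaving out wild type replicate 2 gave 0.42, and leaving out pair 1 from the blocked fit gave -0.15, so its direction depended on single libraries. The Rgs5 to Pdgfrb ratio was 0.842, 1.59 and 0.824 in wild type and 1.55, 1.34 and 0.918 in null libraries. It ranged more widely within each genotype than the means differed.

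**Figure D2:**
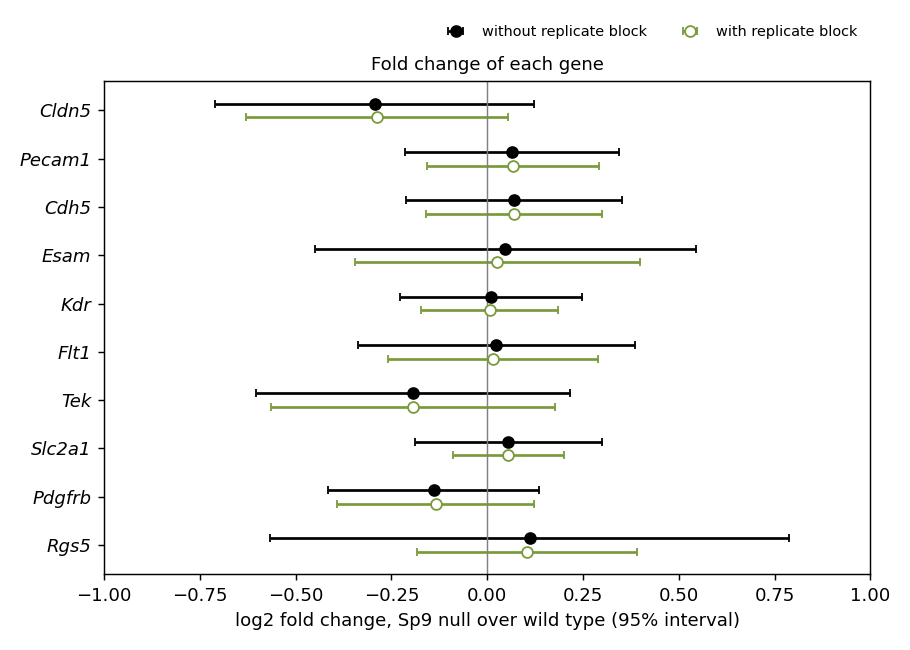
Log2 fold change of Sp9 null over wild type (horizontal axis) for each of the 10 genes, with 95% intervals, without (filled) and with (open) the replicate block. Every interval includes 0, and that of Rgs5 without the block is the widest.

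Summed levels of the chosen genes were compared next. The 7 endothelial genes other than Slc2a1, which other cells use, summed to 135, 149 and 134 CPM in wild type libraries, against 142, 144 and 125 CPM in the nulls. The means were 139 ± 8.35 and 137 ± 10.3 CPM, a null to wild type ratio of 0.985, or 0.0139% and 0.0137% of all counts. This sum rested on 972 to 1624 counts per library. The 2 pericyte genes summed to 39.2, 47.5 and 36.6 CPM in wild type libraries, against 46.3, 43.0 and 32.1 CPM in the nulls, also a ratio of 0.985. The pericyte to endothelial ratio was 0.294 ± 0.0229 in wild type and 0.294 ± 0.0346 in null libraries. Both sums were lowest in replicate 3 of each genotype.

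Replicate 2 of each genotype carried the highest value of its genotype for 3 of the 10 genes, namely Cdh5, Kdr and Slc2a1. The same libraries had the least of the neuronal gene Dcx, at 626 and 435 CPM, and the most of the progenitor gene Nes, at 926 and 973 CPM. In the other libraries Dcx was at 816 to 1027 CPM and Nes at 714 to 767 CPM. The part of this difference in the vascular values was not tested. In the blocked fit without pair 2, 0 of the 10 genes were called, where 0.836% of all genes tested in it were.

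Microglia and macrophages, which lie beside embryonic brain vessels, had lower levels of many, but not all, of their listed genes in the null libraries. Their 14 listed genes summed to 67.2, 70.6 and 64.6 CPM in wild type libraries, against 47.2, 35.6 and 35.2 CPM in the nulls, with no overlap. Of 10 tested, 0 were called without and 6 fell with the block, where 4.00% of all tested genes were called. The median log2 fold change was -1.30, with 9 below and 1 above 0. Cd68 was at 0.12 and Ptprc at -0.20. Of the genes below the filter, Mrc1, Trem2 and Fcer1g overlapped between genotypes and Tyrobp did not. P2ry12, a purinergic receptor gene of microglia, was at 4.72, 6.78 and 5.34 CPM in wild type libraries, against 0.439, 1.09 and 0.318 CPM in the nulls. Pecam1, which macrophages also carry, had a log2 fold change of 0.06 (SE 0.12) in these libraries. Whether the microglial difference exceeded that of the vascular genes was not tested.

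**Figure D3:**
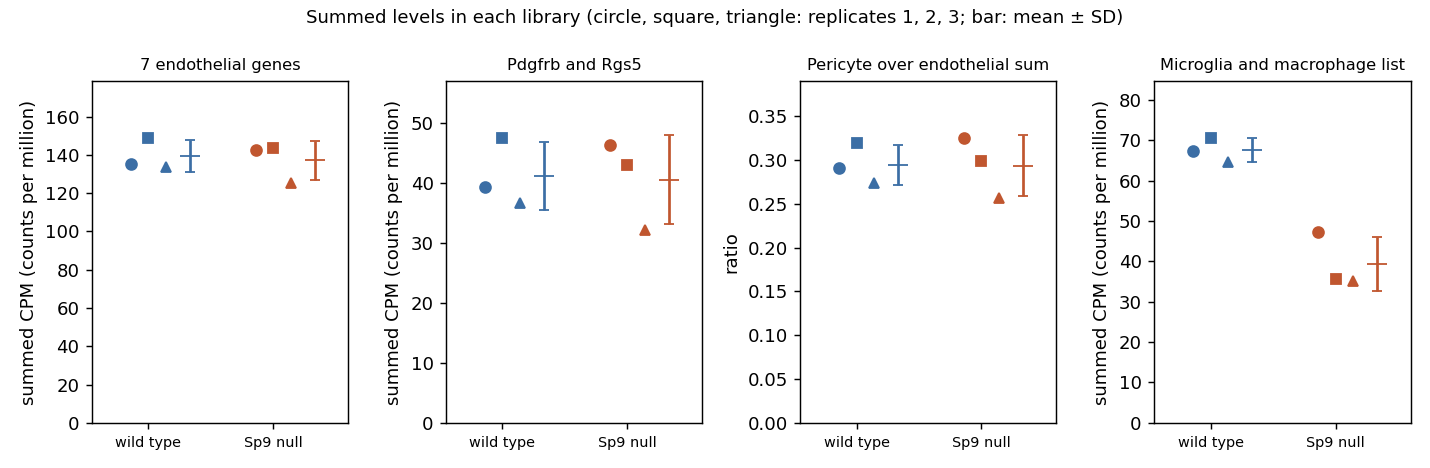
Summed CPM of the 7 endothelial genes, of Pdgfrb and Rgs5, the ratio of these sums, and summed CPM of 14 microglia and macrophage genes (vertical axes, from 0), 1 point per library with mean ± SD. The genotypes overlap for the endothelial sum, the pericyte sum and their ratio and do not in the microglial panel.

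The wider vascular lists held 104 more genes in 6 groups, of which 94 were tested. Without and with the block 0 were called by edgeR, and DESeq2 called 0 in both designs. An unadjusted p under 0.05 occurred for 1 higher and 2 lower of the 94 genes, against 5.91% of all tested genes. With the block it occurred for 8 higher and 4 lower, against 17.2% of all tested genes. Wild type and null values did not overlap for 8 of the 94, or 8.51%, against 13.0% of all tested genes. Of these 8, Robo4, Emcn, Fli1, Lamc1 and Nid2 were higher in the nulls, and Aplnr, Sox18 and Wnt7a were lower. The median log2 fold change was 0.05. For 80 of the 94 the interval excluded a 2-fold change in both directions.

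Other endothelial surface genes numbered 23, all tested, with a median log2 fold change of -0.01. The 3 most abundant were Jam2, a junctional adhesion molecule gene, at 0.16, Mcam at -0.04 and Cd93 at 0.01. Aplnr, the apelin receptor gene, came closest to the threshold and was picked out after its values were seen. It had 13.9, 17.1 and 15.6 CPM in wild type libraries, against 9.38, 10.2 and 13.3 CPM in the nulls, with no overlap. Its log2 fold change was -0.48 (adjusted p = 0.788, and 0.0520 with the block). Its ligand gene Apln had 5.24, 9.80 and 6.65 CPM in wild type libraries, against 11.9, 5.83 and 6.89 CPM in the nulls.

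Among 15 endothelial transcription factor genes, all tested, 10 were above and 5 below 0, with a median of 0.07. The most abundant were Hey1, a Notch target, at 0.19, Ets1 at -0.06 and Epas1, a hypoxia-responsive factor gene, at 0.07. Erg, an ETS factor that maintains endothelial identity, was at 3.88, 4.67 and 3.43 CPM in wild type libraries, against 4.54, 4.46 and 4.14 CPM in the nulls.

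The ligand group, 18 genes counting the co-receptor gene Reck, all tested, had the lowest median of the vascular groups, -0.18, with 12 below 0 and 0 called. Jag1, a Notch ligand gene, was at -0.22 (adjusted p = 0.932, and 0.0865 with the block). Vegfa (chromosome 17, 46016993 to 46032377), the ligand of Kdr and Flt1, had 65.6, 64.3 and 59.7 CPM in wild type libraries, against 74.9, 70.1 and 63.5 CPM in the nulls. The null value was the higher in each of the 3 same-numbered pairs, yet the groups overlapped, and the fitted value was 0.16 (SE 0.09, adjusted p = 0.897, and 0.274 with the block). Wnt7a, a neural signal to brain endothelium, had 53.6, 57.6 and 48.1 CPM in wild type libraries, against 44.7, 44.9 and 41.7 CPM in the nulls. Its groups did not overlap, and its log2 fold change of -0.26 missed the threshold (adjusted p = 0.801, and 0.0788 with the block). Wnt7b was at -0.01, and the genes of the co-receptors that receive both signals, Reck and Adgra2, were at 0.05 and -0.07.

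Barrier transport and junction genes numbered 19, of which 15 were tested, with a median of 0.05. The most abundant were Tfrc, Tjp1 and Slc7a5, for iron uptake, junction scaffolding and amino acid transport, at 0.05, 0.19 and -0.02. In wild type these 3 were at 16.0, 13.4 and 23.1 FPKM, above Cldn5 at 8.21. Bulk tissue does not show which cells made them. Mfsd2a, a lipid transporter gene of barrier endothelium, was at 26.7, 29.1 and 24.1 CPM in wild type libraries, against 31.1, 29.1 and 23.8 CPM in the nulls. Ocln, Slco1a4, Ly6c1 and Ly6a, known from mature vessels, did not pass the filter, and Ly6a had no count in any library.

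The 11 basement membrane genes, all tested, had a median of 0.11, with 10 of 11 above 0 and 0 called. Fn1, encoding fibronectin, was at 0.16, Col4a1, a collagen IV chain gene, at 0.10 and Sparc, a matrix-binding protein gene, at 0.004. Nid2 had 16.6, 17.0 and 16.7 CPM in wild type libraries, against 19.6, 24.2 and 19.5 CPM in the nulls, with no overlap. Its log2 fold change was 0.36 (edgeR adjusted p = 0.801, and 0.113 with the block). Basement membrane proteins are also made by other cells of the tissue.

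Among 18 further mural cell genes 12 were tested, with a median of 0.09. By mean CPM over all 6 libraries Zic1, Notch3 and Rgs4 were the most abundant, and neural cells also use them. Zic1 was at 81.6 and 63.4 CPM in replicate 2 of wild type and null, against 181 to 284 CPM in the other libraries. Rgs4 followed the same split. The pericyte genes Abcc9 and Kcnj8, which form a potassium channel, were at -0.28 and 0.13, and Cspg4, the NG2 proteoglycan gene, at 0.01.

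Of the 6 mural genes below the filter, smooth muscle actin Acta2 and smooth muscle myosin Myh11 had groups that did not overlap, and were picked out after their values were seen. Acta2 had 8, 8 and 5 counts in wild type libraries, against 1, 0 and 0 in null libraries, which after scaling for depth is a null to wild type ratio of 0.0531 (0.00128 to 0.330, an exact 95% interval for counting). Myh11 had 10, 10 and 18 counts against 3, 7 and 5, a ratio of 0.440 (0.225 to 0.819). Without the filter neither was called by edgeR (adjusted p = 0.388 and 0.872). Cnn1 and Des, which smooth muscle also uses, had 7 and 8 counts in wild type libraries, against 8 and 11 in null libraries. The wild type libraries also held 103, 101 and 131 CPM of 11 stomach and pancreas transcripts that the null libraries lacked. Their part in the Acta2 and Myh11 counts, as in the other vascular and microglial values, was not tested.

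**Figure D4:**
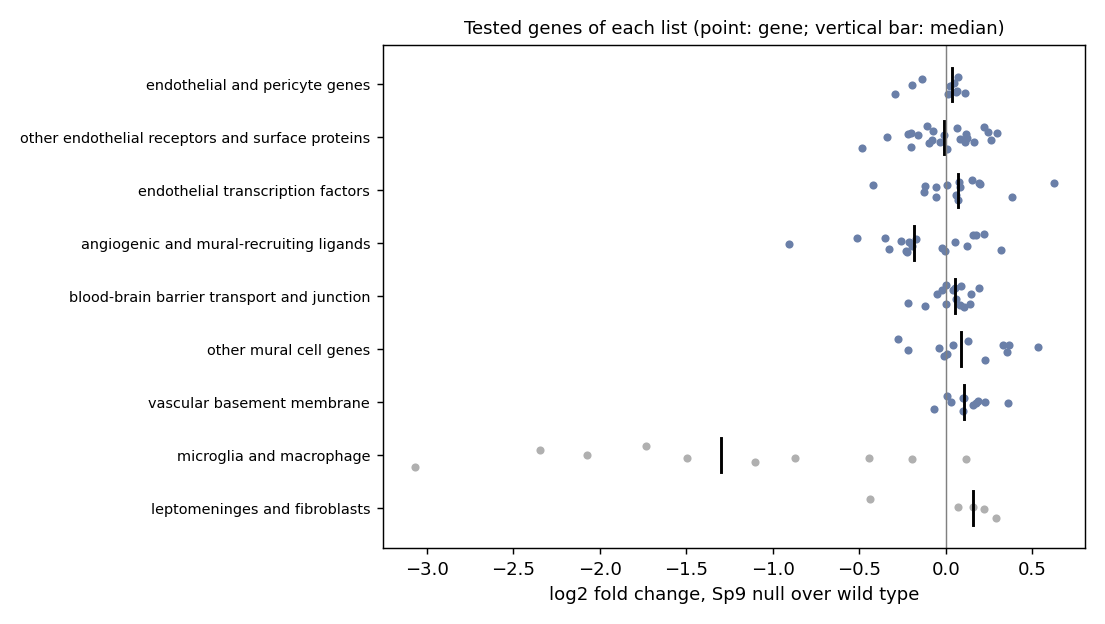
Log2 fold change of Sp9 null over wild type (horizontal axis) for the tested genes of each list, 1 point per gene, with the list median as a bar. The 7 vascular lists centre between -0.18 and 0.11, and the microglia and macrophage list centres at -1.30.

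Genes of adjoining tissue are given for comparison. The leptomeningeal and fibroblast list summed to 49.8 ± 3.41 CPM in wild type libraries, against 45.2 ± 3.24 CPM in the nulls. Of its genes, Dcn, Lum, Twist1 and Tbx15 were each at most 0.458 CPM. The collagen genes Col1a1, Col1a2 and Col3a1 and the factor gene Foxc1 were present, at means of 6.45, 4.36, 7.39 and 3.34 CPM in wild type samples and 7.44, 5.22, 8.09 and 3.39 CPM in null samples. Pdgfra, on that list but also used by oligodendrocyte precursors, made up 27.4 ± 1.57 CPM of the wild type sum and 20.0 ± 3.27 CPM of the null sum. This difference exceeded that of the whole sum, so the lower null sum does not describe the rest of the list. Pdgfra fell by 0.45 on the log2 scale with the block (edgeR adjusted p = 0.0195) and was not called without it (0.635). The choroid plexus genes Ttr and Folr1 were at most 0.638 and 0 CPM, while Otx2, which neural progenitors also use, was at 30.3 to 43.4 CPM.

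Among the genes whose profile over the 6 libraries was most like the mean standardised profile of the 7 endothelial genes were Acap2, Wdr3, Tle3 and Cmc2, with Pearson r from 0.995 to 0.999. As background, they are not known as endothelial markers, and 412 of 11752 genes outside the lists with at least 5 CPM reached an r of 0.9. The 7 endothelial genes followed their own mean profile unevenly, with r from 0.039 for Cldn5 to 0.807 for Kdr. Of the neural genes, Sox2 and Hes5 of progenitors were at 0.943 and 0.905, and Dcx was at -0.843. With 6 libraries that share depth and other library differences, such a likeness is a description of these libraries only.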

How the data were processed

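RNA-seq of 6 MGE libraries was analysed from 1 table of read counts and FPKM. Per the file headers, the authors deposited whole-number counts per gene and library, and FPKM values (fragments scaled by gene length and library total). TopHat, Cufflinks 2.1.1 and the GRCm38.p4 build appear in the submitters' processing notes without their roles. The read counter and its strand setting were not given in the sources used here. Each deposited FPKM equalled count over a fixed gene length and library total, to within 0.001 of its value, for 21180 of 21180 genes seen in 2 or more libraries. The number of unused sample columns was 0.

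Counts were tested with edgeR 4.0.16 (R 4.3.3): TMM scaling, default expression filter, robust quasi-likelihood test, genotype as the only term, two-sided, Benjamini-Hochberg adjustment over 14929 genes, threshold 0.05. Standard errors are |log2 fold change| divided by √F, and 95% intervals use the moderated t quantile. CPM are per raw library total. Counting intervals and floors cover counting error only.

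Deviations from the genotype mean correlated by 0.336, 0.729 and 0.535 between same-numbered libraries 1, 2 and 3, all over 0.1. The number was therefore used as a block in a further fit. Unless the block or another setting is named, fitted values are from the fit without it, which ignores any pairing. The choice of block rests on the data, since the labels do not say what a number marks. Unlike numbers also passed 0.1, namely wild type 1 with null 3 (0.354) and wild type 3 with null 1 (0.230). The correlations thus set replicate 2 apart and do not settle how replicates 1 and 3 pair. Results with the number as a block are given where it adds to a result.

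Alternatives were the block, DESeq2 1.42.0 without and with it, median-ratio (RLE) scaling, no filter, and leaving out each library or pair. The test scripts were tested on simulated data. Promoter letters are those of RefSeq (GRCm38.p6), matched by symbol for 6 of 10 genes. The members and gene lists were chosen with earlier results of these data known. The genes named are the 10 members, listed genes called in either fit, up to 3 most abundant genes of a list, and the 5 genes most like the endothelial profile, of which 1 is not reported here. Apln, Erg, Mfsd2a, Wnt7b, Reck, Adgra2, Abcc9, Kcnj8 and Cspg4 were added for their known roles after their values were seen. Robo4, Emcn, Fli1, Sox18, Lamc1 and Nid2 were added because their groups did not overlap, and Sox2 and Hes5 for their likeness to the endothelial profile.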

Additional observations from a re-analysis of the deposited data

How the results depend on the processing

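Over 14 alternatives the number of the 10 vascular genes called stayed at 0, also with the replicate block (adjusted p = 0.397 for Cldn5). The lowest adjusted p was 0.329, for Cldn5 in the blocked fit without pair 3. Of 140 gene and alternative combinations 125 kept their direction, and the 15 that changed it all left out a library or pair. Leaving out 1 library or pair gave log2 fold changes of -0.21 to 0.26 for Esam, -0.15 to 0.15 for Flt1, -0.079 to 0.074 for Kdr, -0.024 to 0.13 for Pecam1, -0.15 to 0.42 for Rgs5 and -0.031 to 0.14 for Slc2a1. Cldn5, Tek, Pdgfrb and Cdh5 kept their direction in all 14. The median of the 10 genes ranged from -0.11 to 0.10 in these settings. Among the other vascular genes the count called was 0 to 1 when a library or pair was left out. It was 1 in the blocked fit without pair 1 (Rgs4) and without pair 2 (Zic1), and the cause was not tested. Over all 14929 genes the calls were 22, against 597 with the block, 84 with DESeq2, 163 with DESeq2 and the block, and 65 of 23080 without the filter. Leaving out a library gave 2 to 34, and a pair, with the block, 126 to 1193. The endothelial sum had a null to wild type ratio from 0.945 with FPKM to 1.03, and the pericyte sum from 0.914 to 1.09. With 3 libraries per genotype, changes could be missed. The intervals beside each gene are not adjusted for the number of genes tested, whereas calls are. A gene could thus go uncalled though its interval left out 1-fold. Without the block this held for P2ry12, at -3.07 (0.0604- to 0.235-fold, edgeR adjusted p = 0.0556). Genes under a few CPM, such as Acta2, were limited by counting.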
